A study of Mus musculus with 6 samples.

Results

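The mitochondrial protein import machinery comprises the translocases, chaperones and peptidases that bring nuclear-encoded proteins into mitochondria, and its transcripts were followed here in mouse myocardium. Members were the protein-coding genes whose symbols begin with Tomm or Timm and a digit, together with Hspa9, Hspd1, Hspe1, Grpel1, Pmpca, Pmpcb, Samm50, Dnajc19, Pam16, Chchd4 and Gfer. This gave 36 genes of the 54532 in the deposited table, and 33 of them had deposited values high enough to be tested. They were picked by gene name, with earlier results of these data known.

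Both groups were hypertrophic hearts of wild type C57BL/6 mice aged 18 weeks. The 3 libraries called TuD here came from hearts injected with AAV9-anti-miR-199a-TuDs, an adeno-associated virus that delivers tough decoys, which are RNA hairpins that sequester a microRNA. The 3 libraries called control came from hearts injected with AAV9-EGFP, which carries a fluorescent reporter instead. The labels give neither the sex of the mice, the way hypertrophy was induced, the viral dose nor the promoter of the vector, and they do not say whether each library is a separate animal. P-values therefore measure the spread between libraries, which may be technical.

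Values are FPKM (fragments per kilobase of gene and megafragment of library) after division by a size factor per library, called normalised FPKM. The TuD libraries held 15.23 to 16.65 M reads (megareads) recovered from the FPKM and the control libraries 18.02 to 18.22 M. Mitochondrially encoded genes took 11.1% to 17.5% of the reads in TuD libraries and 5.31% to 12% in control libraries. Transcripts of Y-linked genes summed to 12.5 FPKM in TuD replicate 3, 0.0254 in TuD replicate 1 and 0.00711 in TuD replicate 2, while control libraries had 8.32 to 9.59 FPKM. TuD replicates 1 and 2 thus nearly lacked them, and every control library had them. A difference that goes with these transcripts can be told apart from the treatment only through TuD replicate 3. The cardiomyocyte markers Myh6, Tnnt2, Actc1, Ryr2 and Pln were present in every library and summed to 13600 to 16800 normalised FPKM in TuD hearts and 15800 to 16900 in control hearts. Summed levels of 5 macrophage markers were 92.7 to 172 in TuD hearts and 84.7 to 101 in control hearts. The 5 adipocyte markers summed to 125 to 160 in TuD hearts and 61.6 to 73.8 in control hearts. Most of each sum was Fabp4, with 133, 156 and 122 in TuD libraries and 60.8, 67.0 and 73.7 in control libraries. Fabp4 and Cfd were higher in TuD, although Cfd passed the filter only through the TuD libraries. Adipoq, Plin1 and Retn were under the filter. The 5 erythroid markers summed to 1370 to 3290 in TuD hearts and 1140 to 1600 in control hearts, with 2 of 5 higher in TuD. Of the cardiomyocyte markers 2 of 5 were higher (Tnnt2, +0.56, and Pln, +1.06), and of the macrophage markers 0 of 5 were called. The fibroblast markers summed to 121 to 172 in TuD hearts and 114 to 125 in control hearts (Lum higher and Col1a2 lower of 5), and the endothelial markers to 166 to 243 in TuD hearts and 174 to 211 in control hearts (Egfl7 higher, +0.86, of 5). The smooth muscle and pericyte markers summed to 124 to 239 in TuD hearts and 124 to 168 in control hearts (Rgs5 higher, +1.01, of 4 tested). The 5 skeletal muscle markers summed to 569 to 617 in TuD hearts and 699 to 803 in control hearts, and Myh4 had no reads. Nearly all of each sum was Ckm, with 568, 617 and 594 in TuD libraries and 698, 803 and 771 in control libraries. Myh1, Tnnt3 and Actn3 had at most 0.456 in any library, so the sums follow Ckm and not the list. Of the 5 markers only Ckm was tested, with every TuD library below every control library (-0.35, limma adjusted p = 0.0528, not called). After the correction for gene length described below, Ckm was called lower (-0.38, limma adjusted p = 0.0222). The part of these differences in the results was not tested, and in RNA from whole myocardium fewer cells of a type and less RNA per cell cannot be told apart.

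Most mitochondrial proteins are made in the cytosol and enter through TOM, the translocase of the outer membrane. From there SAM inserts barrel-shaped proteins into the outer membrane, the small TIM chaperones ferry hydrophobic proteins across the intermembrane space, TIM22 inserts metabolite carriers into the inner membrane, and TIM23 passes proteins with a cleavable presequence to the matrix. A motor built on the chaperone Hspa9 pulls the chain inward, a peptidase removes the presequence, and the chaperonin Hspd1 with its lid Hspe1 folds the product. Heart muscle is dense in mitochondria and depends on this route for its respiratory chain.

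The tough decoys are directed against miR-199a, whose mature arms are shown here because their seeds were searched for in the import genes. Both arms are encoded at chr1:162217844-162217904 on the plus strand and at chr9:21496498-21496559 on the minus strand (RefSeq, GRCm38.p6). The capitals mark the seed, bases 2 to 8.
miR-199a-5p: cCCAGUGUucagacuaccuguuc
miR-199a-3p: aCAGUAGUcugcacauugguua

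A match in the longest annotated 3' UTR (GENCODE M21, GRCm38) was complementary either to all of bases 2 to 8, or to bases 2 to 7 and followed by an A. For miR-199a-3p, 7 of the 33 tested members held a match, or 21.2%, against 14.8% of 9548 tested coding genes, and in 4 of them (Tomm7, Samm50, Chchd4 and Dnajc19) a match covered all of bases 2 to 8. For miR-199a-5p, 5 members held one, or 15.2%, against 25.1%, and in 2 of them (Chchd4 and Timm29) it covered all of bases 2 to 8. The matches in members that passed the test of TuD against control are given on the transcript strand, with the match and any A that follows it in capitals, so that the kind of match can be read beside each gene's values. Whether miR-199a acts on these genes was not tested.
Tomm7, miR-199a-3p match at chr5:23839546-23839552, minus strand: aggacaaACTACTGcagaaat
Samm50, miR-199a-3p match at chr15:84215904-84215911, plus strand: gtgcttaACTACTGAagcccct
Dnajc19, miR-199a-3p match at chr3:34057329-34057336, minus strand: ttcattcACTACTGAgatggac
Tomm40l, miR-199a-3p match at chr1:171217965-171217971, minus strand: tgcatctCTACTGActgaaaa
Timm29, miR-199a-5p match at chr9:21594772-21594778, plus strand: gtttgttACACTGGcttcccc
Grpel1, miR-199a-5p match at chr5:36471732-36471738, plus strand: accaaggCACTGGAagggaag
Pmpca, miR-199a-5p match at chr2:26396832-26396838, plus strand: tatggttCACTGGAgtcccaa

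The import machinery did not move as a unit. In TuD hearts 8 members were higher than in control hearts (Tomm7, Timm9, Timm10b, Timm8b, Pam16, Dnajc19, Timm13 and Samm50), 4 were lower (Pmpca, Timm29, Tomm40l and Grpel1), and 21 did not pass the test. Genes were tested with limma (two-sided) on log2 values after adding 0.5 to the normalised FPKM, and p-values were adjusted by Benjamini-Hochberg over 10460 genes, with calls at an adjusted p under 0.05. Log2 fold changes are TuD minus control. Of all tested genes 15.0% were called higher and 14.3% lower, beside 24.2% and 12.1% of the members. Called members of either direction came to 36.4%, against 29.3% of all tested genes. The median log2 fold change over the tested members was +0.07, beside +0.01 over all tested genes. Groups did not overlap for 17 members, or 51.5%, against 47.9% of all tested genes. Every TuD library was above every control library for 12 of them, a pattern that 23.5% of all tested genes had, and below for 5, which 24.4% of all tested genes had. The summed level of the members was 1543, 1637 and 1485 normalised FPKM in TuD replicates 1 to 3, against 1355, 1517 and 1499 in control replicates 1 to 3, so the sums overlapped.

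Levels spanned a wide range within the machinery, as the plot of levels by library shows. Hspa9, Tomm5 and Hspd1 had the highest control means, and Timm10b the lowest of the tested members, at 0.937 normalised FPKM. Timm10b passed the filter on low values in 3 TuD libraries but in only 1 control library, so its higher level helped it into the test. Without it 7 members were called higher and 4 lower of 32. The 3 members outside the test had almost no reads. Tomm20l and Timm8a2 had none in any library, where 3 reads would have given 0.215 to 0.289 and 0.170 to 0.228 FPKM, and Tomm6 had 2 reads in TuD replicate 3 and 1 read in control replicate 2.

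**Figure D1:**
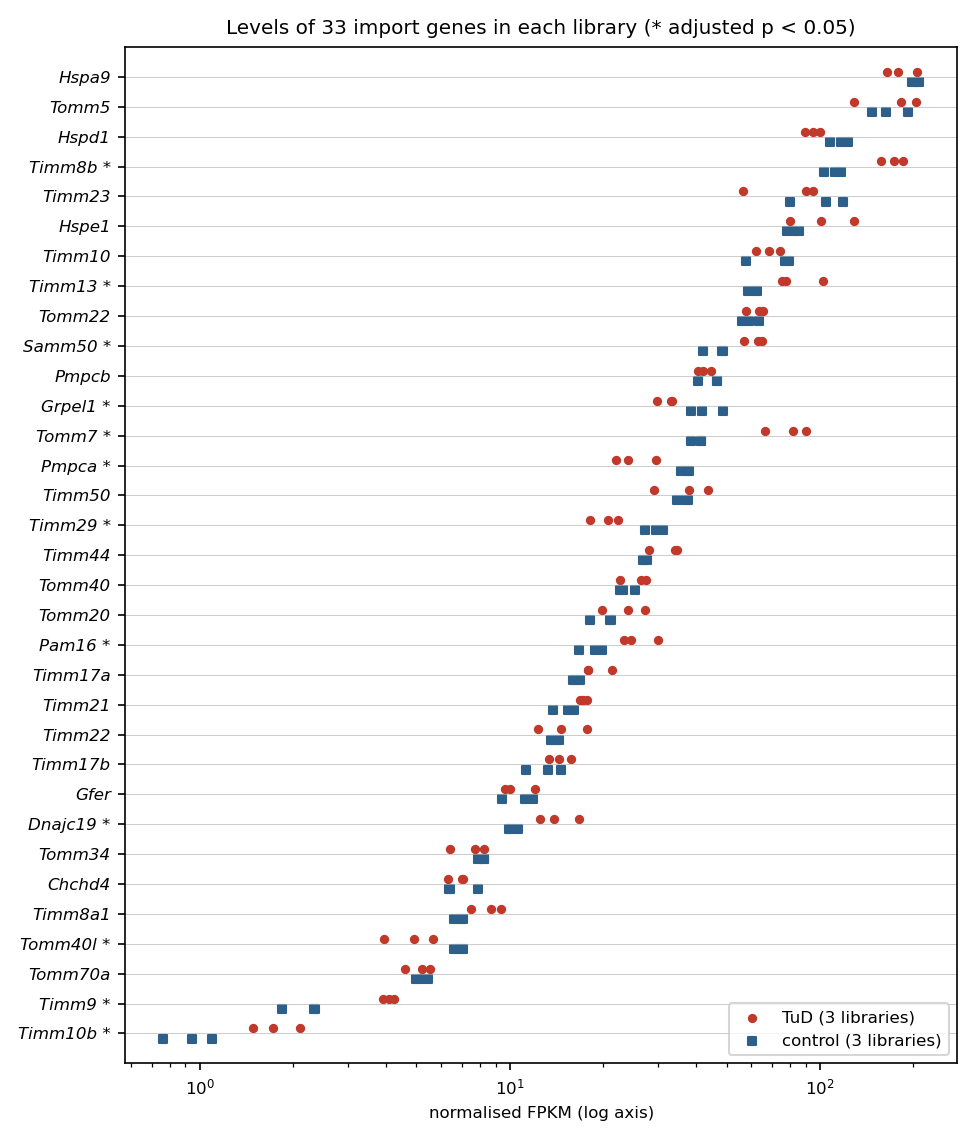
Normalised FPKM on a log axis for the 33 tested import genes, with 1 red circle for each of the 3 TuD libraries and 1 blue square for each of the 3 control libraries, and an asterisk where the adjusted p was under 0.05. The genes are ordered by mean level from Hspa9 at the top to Timm10b at the bottom, and the colours separate fully in 17 of them.

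Results were repeated under 22 alternatives, namely other scalings, filters, pseudocounts and variance models, limma-voom, a correction for gene length, blocks or covariates, and each library left out in turn. Rescaling to TPM shifted the median of all genes by -0.36 on the log2 scale, so that 438 genes were called higher and 4202 lower. Of the members 2 were then higher (Tomm7 and Timm9) and 9 lower, which added Tomm34 (-0.51), Timm23 (-0.73), Hspa9 (-0.56), Pmpcb (-0.46) and Hspd1 (-0.67) to the 4 lower genes. Relative to that shift the member median was +0.05. The fit with a covariate for Y-linked transcripts rests its contrast on TuD replicate 3, the only TuD library that has them.

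**Figure D2:**
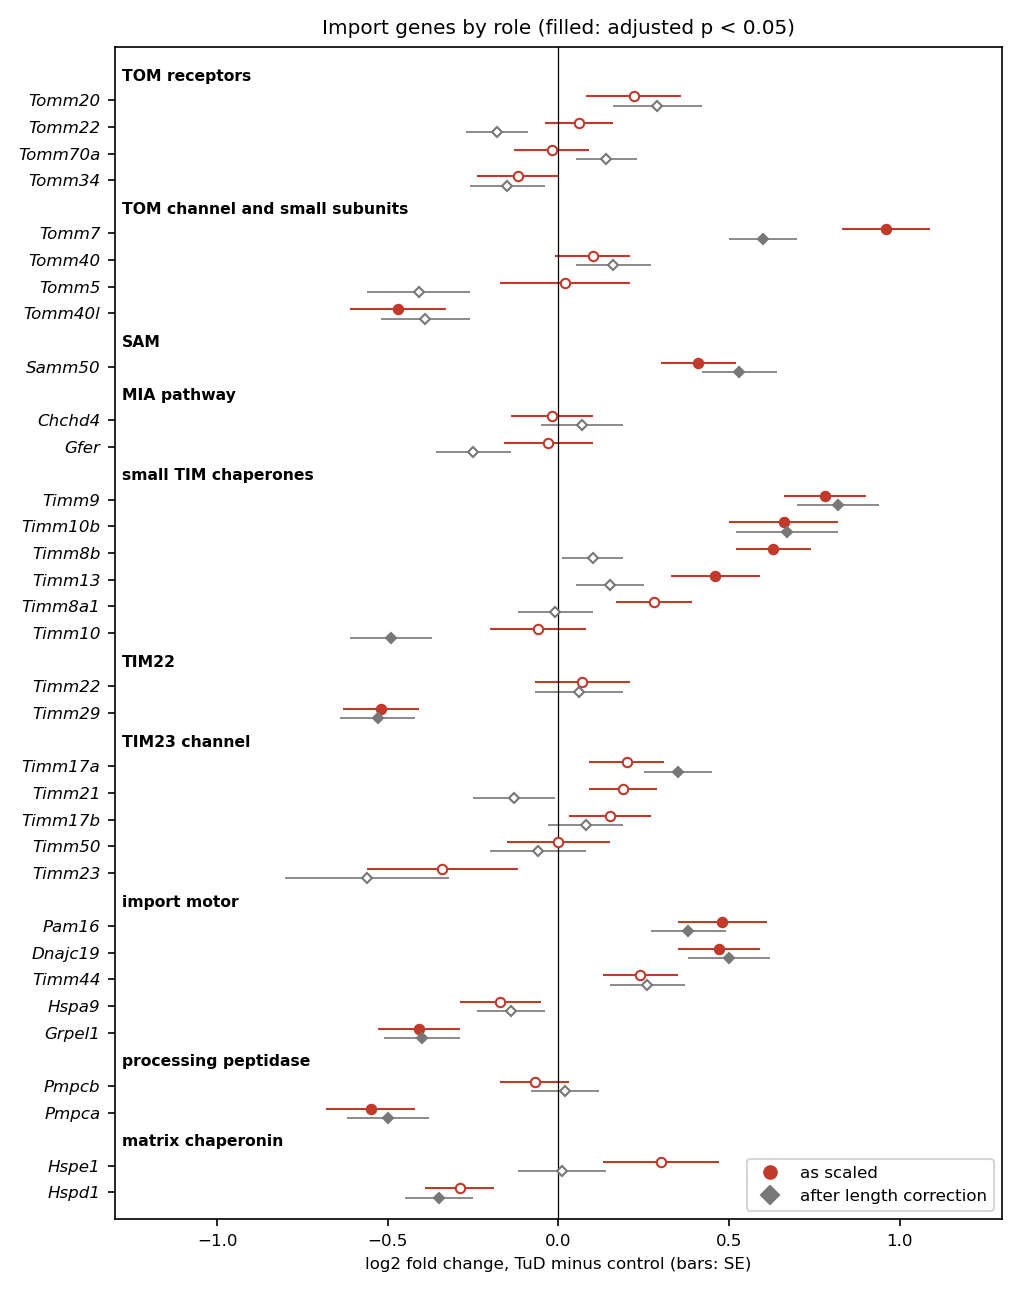
Log2 fold change (TuD minus control, bars are the standard error) of the 33 tested import genes grouped by role, in red as scaled and in grey after the correction for gene length, with filled symbols where the adjusted p was under 0.05. Filled symbols stand on both sides of 0, and Timm8b, Timm13 and Tomm40l lose their fill after the correction while Timm10, Timm17a and Hspd1 gain it.

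None of the 4 tested genes grouped as TOM receptors, which include the cytosolic Tomm34, passed the test. Of all tested genes 29.3% were called. Tomm20 encodes the main presequence receptor and had 19.8, 24.0 and 27.2 normalised FPKM in TuD libraries against 18.2, 21.1 and 21.2 in control libraries (log2 fold change +0.22, adjusted p = 0.254). Tomm22, the central receptor that organises the complex, had 63.4, 65.5 and 57.8 against 59.2, 63.5 and 56.0 (+0.06, adjusted p = 0.676). Tomm70a, the receptor for carrier precursors handed over by cytosolic chaperones, had 5.21, 4.61 and 5.53 against 5.43, 5.17 and 4.97 (-0.02, adjusted p = 0.903). The groups overlapped for each of them. Tomm34, a cytosolic protein that works with those chaperones, also overlapped, with 8.26, 7.71 and 6.42 in TuD hearts and 8.28, 8.26 and 7.87 in control hearts (-0.12, adjusted p = 0.449).

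Within the TOM channel and its small subunits, Tomm7 rose and Tomm40l fell. Tomm7 encodes a small subunit that modulates assembly of the TOM complex and, in human cells, helps hold the kinase PINK1 at the outer membrane of damaged mitochondria. It had 81.7, 90.4 and 66.5 normalised FPKM in TuD replicates 1 to 3 and 38.3, 41.3 and 41.4 in control replicates 1 to 3. Every TuD library lay well above every control library. The means were 79.5 ± 12.1 in TuD hearts and 40.3 ± 1.73 in control hearts (SD, n = 3 each), a log2 fold change of +0.96 ± 0.13 (SE) with a limma adjusted p of 0.00327. Tomm7 is a gene of 1125 bases on chromosome 5 (23838944 to 23844161, minus strand) and rested on 1402, 1471 and 1244 reads in TuD libraries and 814, 917 and 885 in control libraries. The call was kept in all 22 alternatives, with log2 fold changes of 0.58 to 1.08 and adjusted p of 0.00121 to 0.0241, and it was +0.60 after the length correction.

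Tomm40l encodes a less abundant relative of the channel protein Tomm40. It had 4.90, 3.93 and 5.64 normalised FPKM in TuD libraries and 6.59, 7.05 and 6.86 in control libraries. The groups were separate, TuD below control (log2 fold change -0.47 ± 0.14, limma adjusted p = 0.0325). The call was kept in 13 of 22 alternatives (adjusted p 0.0047 to 0.298). It ended with no filter (0.0812), with the length correction (-0.39, 0.0599, or 0.0853 with a replicate block), with the Y-linked covariate (-0.26, 0.298), and without TuD replicate 1 (0.0717), TuD replicate 2 (0.0739), control replicate 1 (0.0671), control replicate 2 (0.0989) or control replicate 3 (0.0918).

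The channel gene Tomm40 itself had 26.5, 27.4 and 22.7 normalised FPKM in TuD libraries and 22.6, 25.3 and 23.1 in control libraries, with overlapping groups (+0.10, adjusted p = 0.497). Tomm5, a small subunit and one of the most abundant members, had 182, 204 and 129 against 147, 192 and 163. These groups overlapped too (+0.02, adjusted p = 0.950). Tomm6, another small subunit, stood near 0 in every library. In the annotation the predicted coding gene Gm21981 overlaps 1648 of the 1741 bases of Tomm6 on the same strand, and its level was 0 in TuD libraries and at most 0.0186 in control libraries. How reads in bases of both genes were counted is not given in the sources used here. Whether Tomm6 is expressed in these hearts therefore cannot be read from its values.

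Samm50, the channel of the SAM complex, rose. It had 56.8, 65.1 and 63.1 normalised FPKM in TuD libraries and 42.0, 48.7 and 48.5 in control libraries. No TuD library reached down to the control range, with means of 61.7 ± 4.33 and 46.4 ± 3.78 (SD, n = 3 each) and a log2 fold change of +0.41 ± 0.11 (limma adjusted p = 0.0257). Its deposited length is 6556 bases, and all tested genes of 2000 bases or more had a median of -0.05. After the length correction it stood at +0.53 (adjusted p = 0.014). The Samm50 call was kept in 15 of 22 alternatives (adjusted p 0.014 to 0.912). It ended with TPM rescaling (+0.02, or +0.38 relative to the shift of all genes), quantile normalisation (0.0527), the Y-linked covariate (0.0917), and without TuD replicate 2 (0.0561), control replicate 1 (0.0824), control replicate 2 (0.062) or control replicate 3 (0.0666).

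Neither gene of the disulfide relay, which folds cysteine-rich proteins in the intermembrane space, passed the test. Chchd4, the oxidoreductase that receives these proteins, had 7.08, 6.99 and 6.30 normalised FPKM in TuD libraries against 6.39, 7.88 and 6.44 in control libraries (-0.02, adjusted p = 0.921). Gfer, the sulfhydryl oxidase that recharges Chchd4, had 10.0, 12.1 and 9.65 against 9.46, 11.9 and 11.2 (-0.03, adjusted p = 0.860). The groups overlapped for both. Approximate 95% intervals of the log2 fold changes ran over -0.25 to 0.21 for Chchd4 and -0.29 to 0.22 for Gfer. They were taken from the SE with a normal distribution, so they are narrower than the limma test implies.

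The small TIM chaperones carried 4 of the 8 higher calls, and none of their 6 tested genes was called lower. Timm10b is among the 4, and its higher level helped it into the test. It is counted in every figure for this group, also after the length correction. Their median log2 fold change was +0.55, and every TuD library exceeded every control library for 5 of the 6. Over all tested genes 15.0% were called higher, and 23.5% had every TuD library above every control library. Several of these genes are short, and of all tested genes under 2000 bases 34.0% were called higher. After the length correction 2 of the 6 were higher, 1 was lower and their median was +0.12. The shares of all tested genes were then 11.4% higher and 12.7% lower.

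Timm9 encodes a subunit of the Timm9 and Timm10 complex, which shields carrier proteins on their way to TIM22. It had 4.09, 3.89 and 4.24 normalised FPKM in TuD libraries and 2.36, 1.84 and 2.33 in control libraries. The groups were far apart, with means of 4.07 ± 0.174 and 2.18 ± 0.292 (SD, n = 3 each) and a log2 fold change of +0.78 ± 0.12 (limma adjusted p = 0.00487). The call was kept in all 21 alternatives in which the gene was tested (adjusted p 0.00253 to 0.0312), and the length correction gave +0.82. Deposited lengths exceeded the longest annotated coding transcript for 28 of the 36 members, Timm9 among them, so FPKM levels compared between genes depend on the length used.

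Timm10, the partner of Timm9, had 68.4, 74.3 and 62.0 normalised FPKM in TuD libraries and 57.8, 79.7 and 77.0 in control libraries. These overlapped (-0.06 ± 0.14, adjusted p = 0.795). With 815 bases it is among the shortest members, and after the length correction its log2 fold change was -0.49 (adjusted p = 0.0213), or -0.49 (0.0448) with a replicate block added.

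Timm10b, a relative found at TIM22, had 1.72, 2.10 and 1.49 normalised FPKM in TuD libraries and 0.947, 0.763 and 1.10 in control libraries. Each TuD library exceeded each control library (+0.66 ± 0.16, limma adjusted p = 0.0183), on 94, 109 and 89 reads against 64, 54 and 75. The call was kept in 16 of 21 alternatives (adjusted p 0.012 to 0.167). It ended with TPM rescaling (0.0747), no filter (0.0617), the Y-linked covariate (0.167), and without TuD replicate 2 (0.0509) or control replicate 2 (0.0659).

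Timm8b and Timm13 belong to the Timm8 and Timm13 chaperones, which carry other inner membrane proteins. Timm8b had 157, 186 and 173 normalised FPKM in TuD libraries and 103, 112 and 117 in control libraries. The groups were separate (+0.63 ± 0.11, limma adjusted p = 0.00654). Timm13 had 77.8, 102 and 75.4 against 58.7, 62.4 and 62.5, also separate (+0.46 ± 0.13, adjusted p = 0.034). Both calls ended with the length correction, which left Timm8b at +0.10 (adjusted p = 0.473, or 0.494 with a replicate block) and Timm13 at +0.15 (0.271, or 0.314).

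The call of Timm8b was kept in 19 of 22 alternatives (adjusted p 0.00333 to 0.494) and also ended with TPM rescaling (+0.25, 0.197). That of Timm13 was kept in 12 of 22 (0.0196 to 0.698). It ended with TPM rescaling (+0.07, 0.698), quantile normalisation (0.0692), no filter (0.0805), the Y-linked covariate (0.264), and without TuD replicate 1 (0.0533), control replicate 1 (0.0947), control replicate 2 (0.0915) or control replicate 3 (0.0874). Timm8a1, the mouse gene on the X chromosome whose human counterpart is mutated in deafness-dystonia syndrome, had 9.37, 8.71 and 7.49 in TuD libraries against 6.97, 7.05 and 6.63 in control libraries. All TuD values were above all control values, without a call (+0.28 ± 0.11, adjusted p = 0.0901), although without TuD replicate 3 it was called (+0.37, 0.0337).

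**Figure D3:**
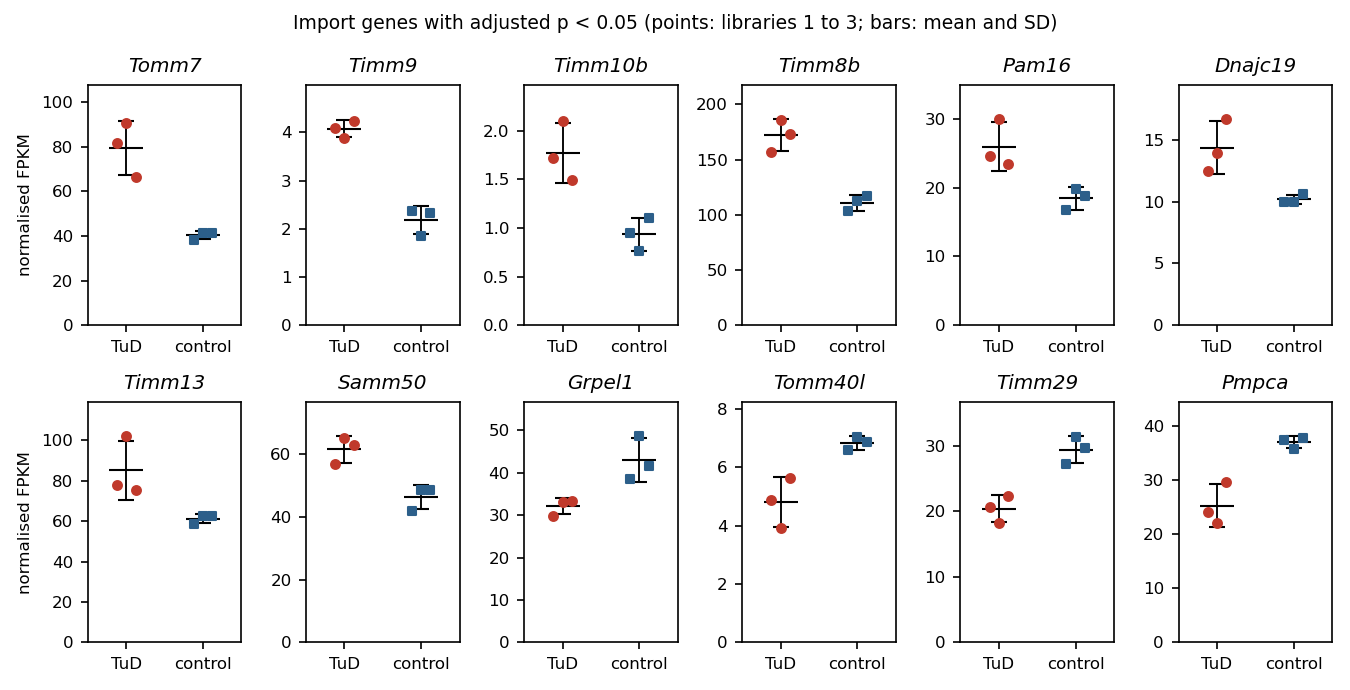
Normalised FPKM of the 12 import genes called, with 1 point for each of the 3 TuD libraries (red, left) and 3 control libraries (blue, right), and bars for the mean and SD. Each panel has its own axis from 0, and in none of the 12 do the points of the groups overlap: 8 genes stand higher in TuD hearts and 4 stand lower.

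In TIM22, Timm29 fell and the channel gene Timm22 did not pass the test. Timm29, a TIM22 subunit that in human cells links the complex to TOM, had 20.7, 18.2 and 22.3 normalised FPKM in TuD libraries and 27.2, 31.3 and 29.6 in control libraries. All TuD libraries were below all control libraries, with means of 20.4 ± 2.05 and 29.4 ± 2.08 (SD, n = 3 each) and a log2 fold change of -0.52 ± 0.11 (limma adjusted p = 0.0125). The call was kept in 20 of 22 alternatives (adjusted p 0.00247 to 0.11) and ended with the Y-linked covariate (-0.39, 0.11) and without control replicate 2 (0.0518). Timm22, the channel, had 14.6, 17.8 and 12.3 in TuD libraries and 14.0, 14.4 and 13.6 in control libraries, which overlapped (+0.07, adjusted p = 0.723).

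None of the 5 TIM23 genes was called. Timm23, the presequence channel, had 89.9, 56.6 and 95.2 normalised FPKM in TuD libraries against 79.8, 105 and 119 in control libraries. TuD replicate 2 was below the control range and the other 2 TuD values were within it (-0.34 ± 0.22, adjusted p = 0.266). The approximate 95% interval, computed as for Chchd4 and likewise too narrow, was -0.78 to 0.09. Its partners Timm17a and Timm17b, paralogs that complete the channel, had 17.9, 17.9 and 21.3 against 16.4, 16.9 and 16.0, and 14.4, 15.7 and 13.4 against 11.3, 13.3 and 14.6. Timm17a was above control in every TuD library (+0.20, adjusted p = 0.177) and passed after the length correction (+0.35, 0.0344), whereas the Timm17b groups overlapped (+0.15, adjusted p = 0.374).

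Timm50, the receptor of TIM23, had 37.7, 43.5 and 29.2 normalised FPKM in TuD libraries and 34.5, 37.0 and 37.5 in control libraries, with TuD replicates on both sides of the control range (adjusted p = 0.998). Timm21, which tethers TIM23 to TOM and to the respiratory chain, had 17.8, 16.8 and 17.2 against 16.1, 15.4 and 13.8. All its TuD values were above its control values, without a call (+0.19, adjusted p = 0.185). With the length correction its log2 fold change was -0.13.

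In the import motor, both J-domain genes rose, the nucleotide exchange factor fell, and the chaperone they serve did not pass the test. Dnajc19 encodes the J protein that stimulates Hspa9, and its human counterpart is mutated in a dilated cardiomyopathy with ataxia. It had 12.5, 13.9 and 16.7 normalised FPKM in TuD libraries and 9.95, 10.0 and 10.6 in control libraries. The groups were separate, with means of 14.4 ± 2.14 and 10.2 ± 0.370 (SD, n = 3 each) and a log2 fold change of +0.47 ± 0.12 (limma adjusted p = 0.025). Pam16, the J-like protein that pairs with Dnajc19 and restrains it, had 24.6, 30.0 and 23.4 against 16.7, 19.9 and 18.8. Its groups were separate too, with means of 26.0 ± 3.54 and 18.5 ± 1.63 and a log2 fold change of +0.48 ± 0.13 (adjusted p = 0.0251).

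Grpel1 releases ADP from Hspa9 and so resets the motor. It had 29.9, 33.1 and 33.3 normalised FPKM in TuD libraries and 38.5, 48.7 and 41.7 in control libraries. None of the TuD libraries reached the control range, with means of 32.1 ± 1.92 and 43.0 ± 5.20 (SD, n = 3 each) and a log2 fold change of -0.41 ± 0.12 (limma adjusted p = 0.0322). Hspa9, the matrix chaperone at the centre of the motor, had 178, 164 and 205 in TuD libraries and 198, 205 and 209 in control libraries. TuD replicates 1 and 2 were below the control range and replicate 3 within it (-0.17 ± 0.12, adjusted p = 0.290), and quantile normalisation called the gene lower (-0.45, 0.0324). Timm44, which anchors Hspa9 at the channel, had 34.1, 34.7 and 28.1 against 26.8, 27.7 and 27.0. All TuD values were above all control values, without a call (+0.24, adjusted p = 0.133), although without TuD replicate 3 it was called (+0.33, 0.0326).

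After the length correction the log2 fold changes were +0.50 for Dnajc19, +0.38 for Pam16 and -0.40 for Grpel1, all with adjusted p under the threshold. The call of Dnajc19 was kept in 17 of 22 alternatives (adjusted p 0.0169 to 0.661) and ended with TPM rescaling (+0.10, or +0.45 relative to the shift of all genes), no filter (0.058), and without control replicate 1 (0.0704), control replicate 2 (0.0818) or control replicate 3 (0.0643). That of Pam16 was kept in 13 of 22 (0.0168 to 0.61). It ended with TPM rescaling (+0.10, or +0.46 relative to the shift), no filter (0.0596), the length correction with replicate block (0.0501), the Y-linked covariate (0.199), and without TuD replicate 1 (0.0514), TuD replicate 2 (0.0531), control replicate 1 (0.0797), control replicate 2 (0.053) or control replicate 3 (0.0695). That of Grpel1 was kept in 16 of 22 (0.00445 to 0.172). It ended with no filter (0.0651), the Y-linked covariate (0.172), and without TuD replicate 1 (0.101), TuD replicate 2 (0.055), control replicate 2 (0.111) or control replicate 3 (0.0829).

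Of the subunits of the presequence peptidase, Pmpca fell. Pmpca encodes the alpha subunit, which binds the presequence, and had 24.0, 22.0 and 29.7 normalised FPKM in TuD libraries and 37.3, 35.7 and 37.8 in control libraries. Each TuD library was below each control library, with means of 25.2 ± 3.98 and 36.9 ± 1.10 (SD, n = 3 each) and a log2 fold change of -0.55 ± 0.13 (limma adjusted p = 0.0148). Pmpcb, the catalytic beta subunit, had 41.9, 44.7 and 40.6 against 40.5, 46.7 and 46.6, with overlapping groups (-0.07 ± 0.10, adjusted p = 0.639). The Pmpca call was kept in 20 of 22 alternatives (adjusted p 0.00263 to 0.141). It ended with the Y-linked covariate (-0.31, 0.141) and without control replicate 3 (0.0532).

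The chaperonin Hspd1 and its lid Hspe1 leaned in opposite directions, and neither passed the test. Hspd1 had 100, 89.3 and 95.1 normalised FPKM in TuD libraries and 117, 108 and 123 in control libraries. All TuD libraries were below all control libraries (-0.29 ± 0.10, adjusted p = 0.0699), and the length correction brought it past the threshold (-0.35, 0.0385), as did quantile normalisation (-0.49, 0.0132). Hspe1 had 101, 129 and 79.9 in TuD libraries and 78.6, 85.9 and 82.5 in control libraries. TuD replicates 1 and 2 were above the control range and replicate 3 within it (+0.30 ± 0.17, adjusted p = 0.205), and without TuD replicate 3 the gene was called (+0.47, 0.0291). After the length correction it stood at +0.01.

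Hspd1 and Hspe1 lie head to head on chromosome 1, and the window around the Hspe1 start is shown because the genes share it. One annotated Hspd1 start lies 216 bases upstream of the Hspe1 start on the opposite strand, and another lies 95 bases inside Hspe1. The window covers 250 bases before and 50 after the Hspe1 start, at chr1:55087898-55088197 on the plus strand (RefSeq, GRCm38.p6). The capitals mark 2 matches of the heat shock element, read as GAA, TTC and GAA with any 2 bases between each and searched on both strands, and the ETS letters CCGGAAG that overlap them, at 89 to 71 bases before the start.
Hspe1 promoter: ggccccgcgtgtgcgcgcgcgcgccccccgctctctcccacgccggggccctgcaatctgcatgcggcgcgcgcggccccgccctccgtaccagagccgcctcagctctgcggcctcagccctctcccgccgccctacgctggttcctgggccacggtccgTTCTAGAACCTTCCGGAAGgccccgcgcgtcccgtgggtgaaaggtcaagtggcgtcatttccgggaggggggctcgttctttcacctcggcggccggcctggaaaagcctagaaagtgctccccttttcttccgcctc

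Windows of the same size were found for 32 of the 36 members. The heat shock element occurred in 3 of them (Hspd1, Hspe1 and Timm9), or 9.38%, against 0.662% of 27025 genes. Hspd1 and Hspe1 hold it in the same shared stretch, which is thus counted for both. The 27025 genes were not limited to those tested here, so the shares are not set against expressed genes. The ETS letters occurred in 14 members, or 43.8%, against 9.93% of genes, with the shared stretch again counted for both Hspd1 and Hspe1. The E-box CACGTG occurred in 6 members (18.8% against 8.09%), and CCAAT in 11 (34.4% against 41.1%). The ERR letters TCAAGGTCA occurred in Timm8b (3.12% against 0.466%), TATAAA in 3 members (9.38% against 15.7%), and the palindromic NRF1 consensus in none (against 1.07% of genes). The ETS letters stood in windows of members that were higher (Timm8b, Timm10b), lower (Grpel1, Pmpca, Timm29) and not called (Hspd1, Hspe1, Timm10, Timm23 and others).

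Partner genes were then set against each other within each library, which cancels the scaling of the library but not an effect of gene length. With 3 libraries against 3, the exact permutation test cannot give a p under 0.1, and 7 ratios were compared. For Timm10 over Timm9, the linear ratio was 16.7, 19.1 and 14.6 in TuD libraries and 24.5, 43.2 and 33.0 in control libraries. Every TuD ratio was below every control ratio, a log2 difference of -0.97 (exact two-sided p = 0.1, 0.175 after Benjamini-Hochberg adjustment over 7 ratios). For Hspe1 over Hspd1 it was 1.0, 1.44 and 0.84 in TuD libraries and 0.673, 0.795 and 0.671 in control libraries. Here every TuD ratio was above every control ratio (+0.59, exact p = 0.1).

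The Pmpcb over Pmpca ratio was 1.74, 2.03 and 1.37 in TuD libraries and 1.09, 1.31 and 1.23 in control libraries, again with no overlap (+0.49, exact p = 0.1). For Tomm40l over Tomm40 it was 0.185, 0.144 and 0.248 in TuD libraries and 0.292, 0.279 and 0.297 in control libraries, with every TuD ratio lower (-0.62, exact p = 0.1). The groups overlapped for Tomm20 over Tomm70a (+0.24, exact p = 0.3), Timm17b over Timm17a (-0.05, exact p = 0.8) and Gfer over Chchd4 (-0.02, exact p = 0.9).

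**Figure D4:**
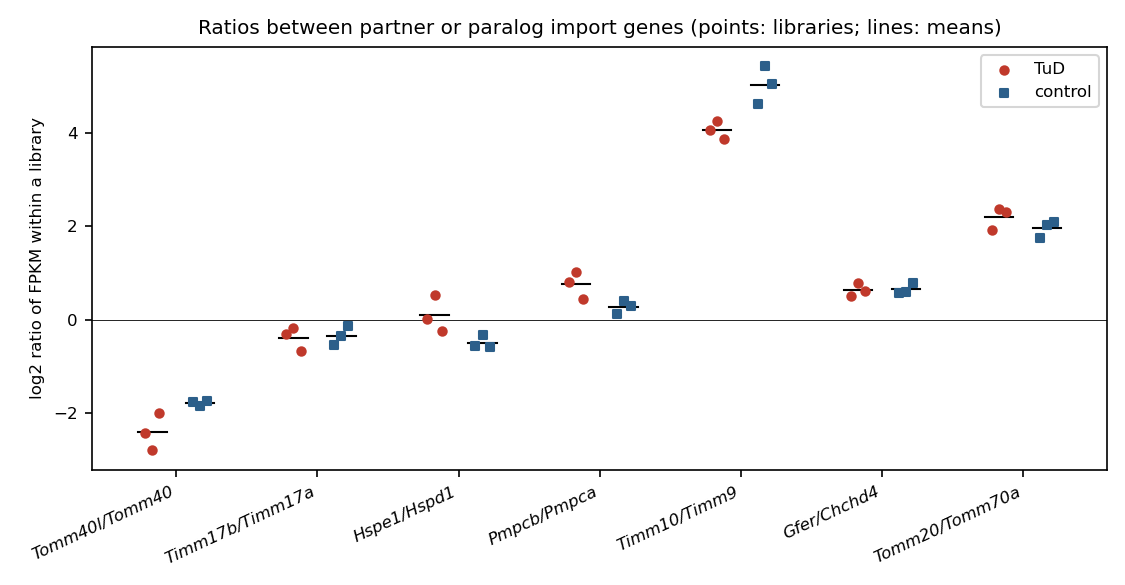
Log2 ratio of FPKM between 7 pairs of import genes within each library, with red circles for the 3 TuD libraries, blue squares for the 3 control libraries and a line at each mean. The colours do not overlap for Tomm40l over Tomm40, Hspe1 over Hspd1, Pmpcb over Pmpca and Timm10 over Timm9, and they overlap for the other pairs.

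Gene length went with the fold change across the whole table. Over all 10460 tested genes, log2 fold change and log10 length had a Pearson correlation of -0.386, and over the 33 members it was -0.238, as a description across genes that share the same 6 libraries. Of all tested genes under 2000 bases 34.0% were called higher and 4.88% lower, and their median log2 fold change was +0.34. The 11 members under 2000 bases had 3 higher and 0 lower, and a median of +0.19. Among the 22 members of 2000 bases or more 5 were higher and 4 lower, against 9.86% and 16.9% of all such genes. After the length correction 7 members were higher and 5 lower, against 11.4% and 12.7% of all tested genes, or 36.4% against 24.1% in either direction. Groups then did not overlap for 18 members, or 54.5%, against 44.9% of all tested genes, and the member median was +0.02.

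**Figure D5:**
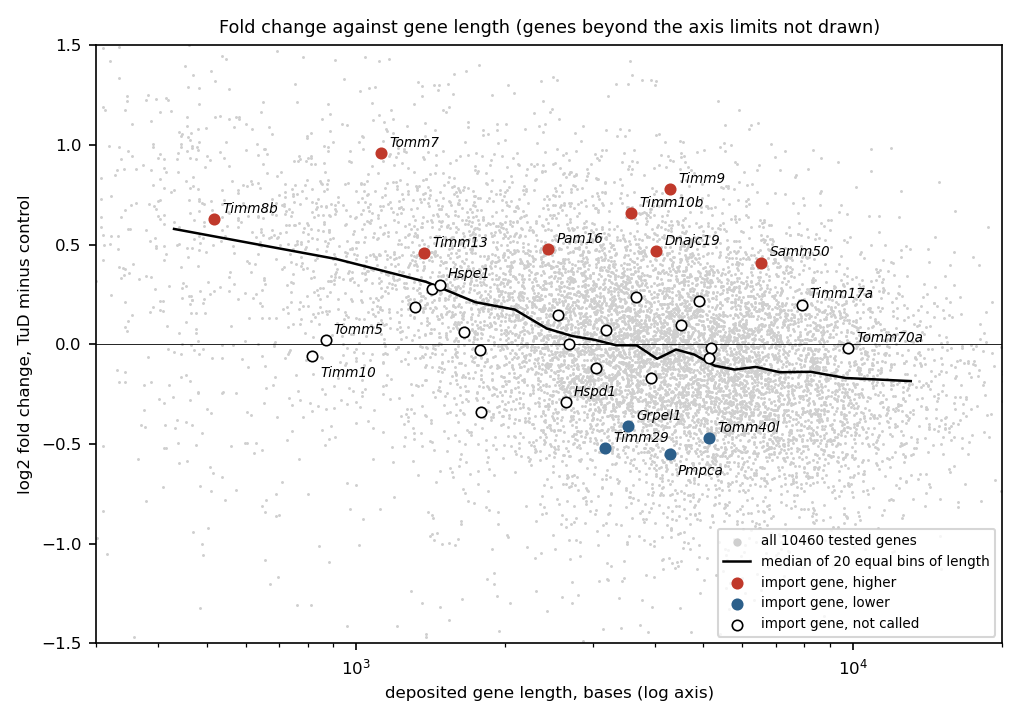
Log2 fold change (TuD minus control) against deposited gene length in bases on a log axis, with grey dots for all 10460 tested genes, a line for the median in bins holding equal numbers of genes, and large symbols for the 33 import genes (red higher, blue lower, open not called). The line slopes downward with length. Timm8b lies near it, while Tomm7, Timm9, Timm10b, Dnajc19 and Samm50 lie above it and Timm29, Grpel1, Tomm40l and Pmpca below it.

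Many import genes share bases with a neighbour. An overlap with another annotated gene was found for 25 members, and with a protein-coding gene on the opposite strand for 18. The strand setting of the read counting is not given in the sources used here, so reads of such pairs may not be separable. Inpp5e overlaps Pmpca over 874 bases, which include the miR-199a-5p match shown above for Pmpca. Inpp5e had 3.57, 2.99 and 3.63 normalised FPKM in TuD libraries and 6.36, 7.37 and 6.87 in control libraries, and was lower like Pmpca (-0.92, limma adjusted p = 0.00258). Tada2b overlaps Grpel1 over 411 bases and had 2.75, 2.23 and 3.84 against 6.00, 6.29 and 4.87, also lower (-0.87, adjusted p = 0.011).

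For other called members the overlapping gene did not pass the test or was hardly expressed. Glis2 covers 8461 of the 8525 bases of Pam16 (adjusted p = 0.796), Fxr1 covers 14303 bases of Dnajc19 (0.537), Arfip2 covers 361 bases of Timm10b (0.485) and Yipf2 covers 107 bases of Timm29 (0.19). Arfip2 averaged 4.36 normalised FPKM in TuD hearts and 3.76 in control hearts, above Timm10b in both. The coding gene Gm45799 shares 3086 of the 3582 bases of Timm10b on the same strand and had at most 0.0515 normalised FPKM. How reads in such shared bases were counted is not given in the sources used here, and their part in the low level of Timm10b was not tested. Nr1i3, opposite Tomm40l over 4691 bases, had at most 0.0313 normalised FPKM. Hspd1 and Hspe1 overlap each other by 112 bases. Of 12 processed pseudogenes named after Hspd1, Hspe1 or Hspa9, 9 had no reads, and Hspd1-ps3 had 4.11, 6.75 and 3.07 in TuD libraries against 2.80, 3.03 and 2.20 in control libraries.

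Set against the seed matches, the 3' UTRs with a miR-199a-3p match belonged to 3 members that were higher (Tomm7, Samm50 and Dnajc19), to Tomm40l, which was lower, and to Tomm20, Tomm70a and Chchd4, which were not called. Those with a miR-199a-5p match belonged to Timm29, Grpel1 and Pmpca, all lower, and to Tomm20 and Chchd4, which were not called. The matches in Grpel1, Pmpca, Tomm40l, Tomm20 and Tomm70a covered bases 2 to 7 with an A. Over all tested coding genes, 8.43% of those with a miR-199a-3p match were higher and 16.9% lower, against 14.2% and 14.6% of those without. With a miR-199a-5p match 8.87% were higher and 20.5% lower, against 14.9% and 13.0% without. These shares come from the fit without the length correction. In that fit 16.9% of all tested genes of 2000 bases or more were lower, against 4.88% of shorter ones. The lengths of genes with and without a match were not compared, and the part of length in these shares was not tested.

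Genes that work beside the import machinery were taken as 5 further lists. Of 16 other import and sorting genes tested, 6 were higher and 2 lower, with a median log2 fold change of +0.25, and after the length correction 5 were higher and 1 lower. Over all tested genes the shares were 15.0% higher and 14.3% lower, or 11.4% and 12.7% after that correction. Immp1l and Immp2l encode the inner membrane peptidase. Immp1l had 59.0, 74.1 and 62.4 normalised FPKM in TuD libraries and 39.9, 41.5 and 40.2 in control libraries (+0.67, limma adjusted p = 0.00574). Immp2l had 12.8, 16.5 and 12.3 against 7.49, 7.99 and 9.02 (+0.72, adjusted p = 0.00842). In both, all TuD values were above all control values. The Immp1l call ended with the length correction (+0.27, adjusted p = 0.0537, or 0.104 with a replicate block) and TPM rescaling (0.122), and that of Immp2l with TPM rescaling (0.0767) and the Y-linked covariate (0.0779). Romo1, a small inner membrane protein, averaged 194 ± 28.5 in TuD hearts and 114 ± 9.59 in control hearts (+0.76, adjusted p = 0.00668), and the outer membrane pore gene Vdac3 averaged 70.6 ± 5.30 and 51.6 ± 2.79 (+0.45, adjusted p = 0.0156; SD, n = 3 each). Romo1 stood at +0.30 after the length correction (0.0491), and its call ended with that correction and a replicate block (0.0998), TPM rescaling (0.0589) and the Y-linked covariate (0.0608). The Vdac3 call ended with TPM rescaling (+0.06, 0.727), the Y-linked covariate (0.112), and without control replicate 1 (0.0537) or control replicate 2 (0.0536). The lower genes, named after their values were seen, were Vdac1 and the peptidase gene Xpnpep3.

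MICOS shapes the cristae and contacts SAM, and 3 of its 7 genes were higher and 0 lower, with a median of +0.33. After the length correction 1 was higher and 0 lower, with a median of +0.16. Of all tested genes 15.0% were higher and 14.3% lower, or 11.4% and 12.7% after that correction. Minos1, which bends the membrane at crista junctions, had 105, 139 and 111 normalised FPKM in TuD libraries and 69.6, 65.0 and 68.4 in control libraries. Its groups were far apart (+0.79, limma adjusted p = 0.00472), and the call was kept in all 22 alternatives. The others called were Apoo (+0.49, adjusted p = 0.014) and Chchd3 (+0.33, 0.0483). The Apoo call was kept in 16 of 22 alternatives. It ended with the length correction (+0.16, 0.33, or 0.308 with a replicate block), TPM rescaling (+0.10, 0.556), quantile normalisation (0.0679), the Y-linked covariate (0.0581) and without control replicate 2 (0.0582). The Chchd3 call was kept in 7 of 22 alternatives, its sign turned with TPM rescaling (-0.05), and it ended without any 1 of the 6 libraries (adjusted p 0.0502 to 0.135).

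Among 13 tested twin CX9C proteins, which are typical cargo of the Chchd4 relay, 8 were higher and 1 lower, with a median of +0.60. Over all tested genes 15.0% were higher and 14.3% lower. The median length of the list was 1575 bases, and of all tested genes under 2000 bases 34.0% were higher, with a median of +0.34. After the length correction 5 of the 13 were higher, 1 was lower and their median was +0.23, against 11.4% higher and 12.7% lower of all tested genes. Cmc1, a factor in respiratory complex IV assembly, had 15.7, 14.6 and 16.0 normalised FPKM in TuD libraries and 8.48, 6.93 and 7.79 in control libraries. The groups were far apart (+0.96, limma adjusted p = 0.00219), and the call was kept in all 22 alternatives. Ndufb7, a subunit of respiratory complex I, averaged 168 ± 32.1 in TuD hearts and 94.0 ± 6.97 in control hearts (+0.82, adjusted p = 0.00684). Ndufs5, another, averaged 427 ± 73.6 in TuD hearts and 248 ± 19.6 in control hearts (+0.77, adjusted p = 0.00805; SD, n = 3 each). The mitoribosomal gene Chchd1 was also higher (+0.70, adjusted p = 0.00786). Its call ended with the length correction (+0.29, 0.0536, or 0.0933 with a replicate block), TPM rescaling (0.0976) and the Y-linked covariate (0.0731). The Ndufs5 call ended with the length correction and a replicate block (+0.34, 0.0834), TPM rescaling (0.0633) and the Y-linked covariate (0.0751), and that of Ndufb7 with the Y-linked covariate (0.0642). The lower gene, named after its value was seen, was Triap1.

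Of 15 proteases and stress factors of the matrix and inner membrane, 1 was higher and 2 were lower, with a median of +0.02, and after the length correction 1 was higher and 3 were lower. The shares of all tested genes were 15.0% higher and 14.3% lower, or 11.4% and 12.7% after that correction. Dnaja3, a matrix J protein that works with Hspa9, had 44.5, 42.0 and 40.5 normalised FPKM in TuD libraries and 57.8, 66.7 and 65.1 in control libraries. All TuD values were below all control values (-0.57, limma adjusted p = 0.00684), and the call was kept in all 22 alternatives. Afg3l2, a subunit of the inner membrane m-AAA protease, fell (-0.44, adjusted p = 0.0329), and Atf5, a transcription factor of the mitochondrial unfolded protein response, rose (+0.55, adjusted p = 0.0123). The Afg3l2 call was kept in 14 of 22 alternatives. It ended with a replicate block (0.0557, or 0.0569 with the length correction as well), no filter (0.0732), the Y-linked covariate (-0.30, 0.239), and without TuD replicate 1 (0.0567), TuD replicate 2 (0.0657), control replicate 2 (0.105) or control replicate 3 (0.107). The Atf5 call was kept in 18, and ended with TPM rescaling (+0.17, 0.388), the length correction with a replicate block (0.0569), the Y-linked covariate (0.103) and without control replicate 3 (0.051). Of 7 cytosolic chaperones that deliver precursors, 0 were higher and Dnajb1 was lower (-0.63, adjusted p = 0.0227), with a median of -0.14. Beside them stand 15.0% of all tested genes higher and 14.3% lower. The Dnajb1 call was kept in 16 of 22 alternatives. It ended with no filter (0.0692), the length correction with a replicate block (0.0508), the Y-linked covariate (0.184), and without TuD replicate 1 (0.0687), TuD replicate 2 (0.0659) or control replicate 2 (0.0607).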

How the data were processed

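Per the labels' protocols, total RNA of frozen hearts went into NEBNext Ultra RNA libraries. Per the submitters' processing notes, HISAT2 2.0.5, featureCounts 1.5.0-p3 and genome build mm10 were used; the annotation and the strand setting are not given in the sources used here. The authors deposited FPKM for 54532 genes in 6 samples. Samples were grouped by their labels, 3 in each group.

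FPKM times gene length gave whole reads, within 0.05 of a read, for 99.92% to 99.99% of values, which set the depths. At these depths 3 reads over 2000 bases equal an FPKM of 0.0774 to 0.104, for counting error only. Each library's FPKM were scaled by its median-of-ratios size factor (0.9852 to 1.02). A gene was tested if its deposited FPKM reached 1 in 3 or more samples, which kept 10460 genes. The test was limma 3.58.1 (R 4.3.3) on log2(normalised FPKM + 0.5), lmFit and eBayes with trend, two-sided, with Benjamini-Hochberg adjustment and a threshold of 0.05. The pseudocount understates changes of low genes. Since the authors deposited FPKM, limma-voom on the recovered read counts served as an alternative only.

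The length correction subtracted from each library's log2 values a lowess curve (span 0.3) of its deviation from the gene mean on log10 length. All 33 tested members are named, and of each further list the called genes with the smallest p. The members, lists and tests were chosen with earlier results of these data known. Python 3.11.15, scipy 1.17.1 and matplotlib 3.10.9 were used for ratios, sequences and plots.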

Additional observations from a re-analysis of the deposited data

How the results depend on the processing

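Of 1054 recomputed gene results (48 named genes under up to 22 alternatives), 923 kept their side of the threshold and their direction or stayed uncalled, 116 lost a call, 14 gained one and 1 reversed, Chchd3 with TPM rescaling (-0.05); 54 of those uncalled in both fits changed sign. TPM rescaling gave 2 members higher and 9 lower, 438 genes higher and 4202 lower, and a member median of -0.31, beside an all-gene median of -0.36. With no filter 4 members were higher and 2 lower, and 1010 genes higher and 956 lower. With the Y-linked covariate 4 members were higher and 0 lower, 651 genes higher and 529 lower, and the member median was -0.04. At an adjusted p of 0.01, 3 members were higher and 0 lower, a count given without the share of all tested genes. Limma-voom called 8 members higher and 4 lower, and 1592 genes higher and 1694 lower.

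Leaving out 1 library gave 3 to 11 members higher and 1 to 4 lower, 878 to 1638 genes higher and 718 to 1620 lower, and a member median of 0.05 to 0.15. The fewest member calls, 3 higher and 1 lower, came without control replicate 2. The log2 difference ranged from -0.15 to 0.09 for Timm17b over Timm17a and from -0.09 to 0.05 for Gfer over Chchd4. The causes were not tested.

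The replicate numbers gave no sign of pairing between the groups. Correlations of same-numbered deviations were 0.0637, 0.0882 and -0.0554, and those of differently numbered ones ran from -0.161 to 0.0934. Deviations from a mean of 3 libraries depend on each other, so these values cannot exclude pairing. With a replicate block 8 members were higher and 4 lower, and 1462 genes higher and 1199 lower. The length correction with replicate block called 5 members and 957 genes higher, and 4 members and 1027 genes lower. With 3 libraries a group and 15.23 to 18.22 M reads (megareads), changes of low genes such as Timm10b rest on few reads.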
